A study of Mus musculus with 9 samples.

Results

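The genes described are 7 guanylate binding proteins (GBPs: Gbp2, Gbp3, Gbp4, Gbp5, Gbp6, Gbp7 and Gbp9) and 3 immunity related GTPases (IRGs: Irgm1, Igtp and Iigp1). They were picked by gene name, as a readout of interferon gamma, and are 10 of the 54532 genes with expression values. Bulk RNA-seq was analysed for dendritic cells (DCs) sorted from mouse spleen, with 3 groups, 3 samples in each and 9 samples in all. N-mDCs were mature conventional DCs (cDCs) of untreated normal mice. T-DCs were CD11c+MHCIIlo cells, and T-mDCs were mature cDCs, both from mice with T-cell acute lymphoblastic leukemia (T-ALL). In this model the leukemia is made with retrovirally expressed intracellular Notch1 and grows in non-irradiated hosts, which keep their own immune cells. T-DCs differed from N-mDCs both in the host and in the surface MHCII used to sort them. T-mDCs came from leukemic hosts as T-DCs did, and differed from them in the surface MHCII used for sorting. The labels do not say whether each sample came from a separate mouse or from pooled mice, so p-values measure the spread between samples, which may be technical.

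GBPs and IRGs are large GTPases made in the cell's cytoplasm. Interferon gamma binds its receptor and acts through the kinases Jak1 and Jak2 on genes that hold short DNA elements called gamma-activated sites (GAS). It also raises Irf1, which binds interferon-stimulated response elements (ISRE). Type I interferons reach ISREs with the help of Stat2 and Irf9, so many GBP and IRG genes answer to both kinds of interferon. GBPs coat vacuoles and bacteria in the cytoplasm and help to trigger inflammasomes. IRGs destabilise the vacuoles of intracellular parasites, and Irgm1 and Igtp (also called Irgm3) guard the cell's own membranes against the effector IRGs, of which Iigp1 (also called Irga6) is the best known.

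The mouse genes lie in family clusters. On the plus strand of chromosome 3 of GRCm38, Gbp5 (142493978 to 142522344), Gbp7 (142530342 to 142550149), Gbp3 (142560026 to 142573209) and Gbp2 (142620602 to 142638008) followed one another. On the minus strand of chromosome 5 lay Gbp9 (105077630 to 105139539), Gbp4 (105115767 to 105139586) and Gbp6 (105270702 to 105293698). Irgm1 (48861968 to 48871683, minus strand) and Igtp (58199556 to 58207591, plus strand) were on chromosome 11, and Iigp1 lay apart from both.

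Promoter windows from RefSeq (GRCm38.p6), each 300 bases with 250 before the transcription start, were matched for 6 of the 10 genes (Gbp2, Gbp3, Gbp5, Gbp7, Irgm1 and Igtp). They were searched for the letters of a GAS (TTCNNNGAA, which reads the same on both strands) and of an ISRE core (GAAA, any 2 bases, then GAAA, on either strand). A GAS was present in 8.29% of all 32817 windows and an ISRE core in 3.43%. Each of the 6 genes had at least 1 ISRE core in a window, and Gbp5, Gbp7 and Igtp also had a GAS. Gbp5 and Gbp7 are shown because they are neighbours with calls of opposite sign in T-DCs, Gbp7 higher than in N-mDCs and Gbp5 lower than in T-mDCs, with the GAS and ISRE core letters in capitals. The Gbp7 window (chr3:142530086-142530385, plus strand) held GAS letters from positions -106 and -87 and an ISRE core from position -53, with the start site as position 0. The Gbp5 window (chr3:142496684-142496983, plus strand) held GAS letters from positions -245 and -52 and an ISRE core from position -165, and its start site lies inside the gene as annotated in the expression values.
Gbp7: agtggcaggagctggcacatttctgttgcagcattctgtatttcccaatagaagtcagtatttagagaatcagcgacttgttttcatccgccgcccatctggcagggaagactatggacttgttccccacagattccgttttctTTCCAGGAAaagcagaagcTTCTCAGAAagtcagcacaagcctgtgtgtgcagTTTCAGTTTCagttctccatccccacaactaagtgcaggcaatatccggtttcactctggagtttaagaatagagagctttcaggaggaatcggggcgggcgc
Gbp5: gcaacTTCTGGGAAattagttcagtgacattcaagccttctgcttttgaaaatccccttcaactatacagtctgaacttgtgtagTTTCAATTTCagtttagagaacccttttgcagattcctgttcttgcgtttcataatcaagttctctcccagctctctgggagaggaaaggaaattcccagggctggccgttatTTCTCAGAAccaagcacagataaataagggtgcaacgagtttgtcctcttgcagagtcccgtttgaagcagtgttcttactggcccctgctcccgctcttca

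The Gbp7 GAS nearest its start and the Gbp5 GAS nearest its start had the same letters, TTCTCAGAA. In Igtp, the GAS was followed by an ISRE core that began 11 bases further on, and the same spacing was then looked for elsewhere (a GAS, any 2 bases, then an ISRE core, on either strand). It was present in 5 of the 32817 windows (0.0152%), of which 4 belonged to Igtp and to 3 other IRG genes of chromosome 11, Irgm2, Tgtp1 and Tgtp2. These stretches are shown to let the copies be compared, with both motifs in capitals. The spacing was chosen after the Igtp window was seen, and a match describes letters and does not show that a factor binds.
Igtp: TTCTAGGAActGAAACTGAAA
Irgm2: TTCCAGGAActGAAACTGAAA
Tgtp1: TTCCAGGAAtcGAAACTGAAA
Tgtp2: TTCCAGGAAtcGAAACCGAAA

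Levels are FPKM, that is, reads divided by gene length and by a scaling size particular to the library. Reads on genes ran from 15360815 to 18440913 per sample, and a single read added 0.0517 to 0.0659 FPKM to a gene 1 kilobase long. T-DC samples 2 and 3 stood apart in red cell and neutrophil genes. The summed FPKM of 8 red cell genes was 57600 and 40230 in them, 590 in T-DC sample 1, between 96.4 and 5273 in N-mDCs and between 14.2 and 175 in T-mDCs. The 5 neutrophil genes summed to 4054 and 1420 in the same samples and to 8.5 in T-DC sample 1. They summed to between 56.45 and 653 FPKM in N-mDCs and between 3.59 and 14.8 in T-mDCs. T-DC sample 1 in turn had the most macrophage RNA of its group. The 6 macrophage genes summed to 2841 FPKM in it and to 1092 and 689 in T-DC samples 2 and 3. Their sums ran from 1405 to 3101 in N-mDCs and from 432 to 1206 in T-mDCs. The cDC label was weaker in T-DCs: the 4 cDC markers Zbtb46, Flt3, Itgax and Dpp4 summed to 185, 110 and 57.5 FPKM in T-DC samples 1 to 3, against 244 to 386 in N-mDCs and 285 to 360 in T-mDCs. None of the 4 was at 0 in any sample. T-mDC samples 2 and 3 were far more alike than any other pair of a group (chi-square per gene of 1.85 against 8.11 to 36.1) and were kept as separate samples.

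The GTPase genes did not move as a block in T-DCs. Compared with N-mDCs, T-DCs expressed lower levels of Gbp4 and Gbp9 and a higher level of Gbp7, and the other 6 tested genes did not pass the test. Compared with T-mDCs, T-DCs expressed lower levels of Gbp4 and Gbp5. The 3 IRGs passed the test in no comparison with all samples in the fit. In T-DCs they ranged widely between samples, and Igtp was called higher in T-DCs when T-DC sample 1 was left out. Gbp2 had the highest mean level in both mature groups and Igtp in T-DCs.

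Gbp4 showed the largest difference. It was listed at 12.7, 5.09 and 10.2 FPKM in N-mDC samples 1 to 3, at 0.812, 1.28 and 0.782 in T-DC samples 1 to 3, and at 3.65, 7.83 and 7.49 in T-mDC samples 1 to 3. Every T-DC sample lay below every sample of the other groups. The mean was 9.34 ± 3.89 FPKM (SD, n = 3) in N-mDCs, 0.959 ± 0.281 in T-DCs and 6.32 ± 2.32 in T-mDCs. On the log2(FPKM + 1) scale, which understates changes of low genes, the difference of T-DCs from N-mDCs in Gbp4 was -2.33 (SE 0.349, limma, adjusted p = 0.00428), a 9.74-fold gap between the FPKM means. Against T-mDCs the difference was -1.85 (95% confidence interval -2.65 to -1.06, adjusted p = 0.0112 in limma), a 6.59-fold gap between means. Gbp4 was 0.812 FPKM in T-DC sample 1, which held the least red cell RNA of its group. With the red cell genes as a covariate, the log2 difference from N-mDCs was -1.97 and the call was lost. Beyond that fit, the part of red cell RNA in the difference was not tested. In bulk RNA, fewer cells that express a gene and less RNA in each cell cannot be told apart.

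Gbp9, the neighbour of Gbp4, was listed at 28.2, 12.1 and 22.7 FPKM in N-mDC samples 1 to 3, at 9.92, 4.75 and 5.65 in T-DCs and at 10.9, 14.8 and 14.2 in T-mDCs. The T-DC samples lay below all samples of both mature groups. The mean fell from 20.99 ± 8.15 FPKM in N-mDCs to 6.77 ± 2.76 in T-DCs (log2 difference -1.48, SE 0.341, limma adjusted p = 0.0223). Against the T-mDC mean of 13.3 ± 2.09 the log2 difference was -0.92 (95% confidence interval -1.70 to -0.15), which did not pass the test (limma adjusted p = 0.107). The direction against T-mDCs held in 21 of 22 alternative analyses, with log2 differences from -1.40 to 0.29. With T-DC sample 1 alone the log2 difference from N-mDCs was -0.93 for Gbp9 and -2.43 for Gbp4, and with the red cell genes as a covariate it was -0.67 and -1.97. The Gbp9 call was lost under both, with no filter and with only the groups compared. It was also lost without N-mDC sample 1, N-mDC sample 3, T-DC sample 2 or T-DC sample 3. The Gbp4 call against N-mDCs was lost only with T-DC sample 1 alone and with the red cell covariate.

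Gbp4 and Gbp9 overlap on the chromosome. Their 5′ ends are 47 bases apart, and they share 60 exon bases in 1 run (105139480 to 105139539 on chromosome 5). Gbp8, another GBP of that cluster, has its 5′ end 1 base from that of Gbp9 and holds the same run. Gbp8 was listed at 31.0, 28.3 and 36.5 FPKM in N-mDCs, at 13.2, 7.01 and 3.75 in T-DCs and at 9.0, 14.6 and 14.0 in T-mDCs, and its level in T-DCs was below that in N-mDCs (log2 difference -2.01, limma adjusted p = 0.00962). Against T-mDCs the Gbp8 samples overlapped, and the log2 difference of -0.71 did not pass the test (limma adjusted p = 0.242). Every T-mDC sample also lay below every N-mDC sample in Gbp8 (log2 difference -1.30, limma adjusted p = 0.122). Thus these 3 genes that share 5′ exon bases all had lower levels in T-DCs, compared with N-mDCs, and Gbp8 was set beside the pair after its values were seen. Reads on the shared run cannot be assigned to 1 of them, and 7.78% of the 50-base stretches of Gbp4 and 8.05% of those of Gbp9 occur in another gene.

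Gbp6, the remaining chromosome 5 gene, was low everywhere and did not reach the filter of 1 FPKM in at least 3 samples, so it has no test. It was listed at 0.354, 0.574 and 0.971 FPKM in N-mDCs, at 0.347, 1.32 and 0.564 in T-DCs and at 0.0979, 0.122 and 0.146 in T-mDCs. The T-mDC samples lay below all others, on 11 to 16 reads each. Of its 50-base stretches, 70.7% occur in other genes, so its level is uncertain.

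**Figure D1:**
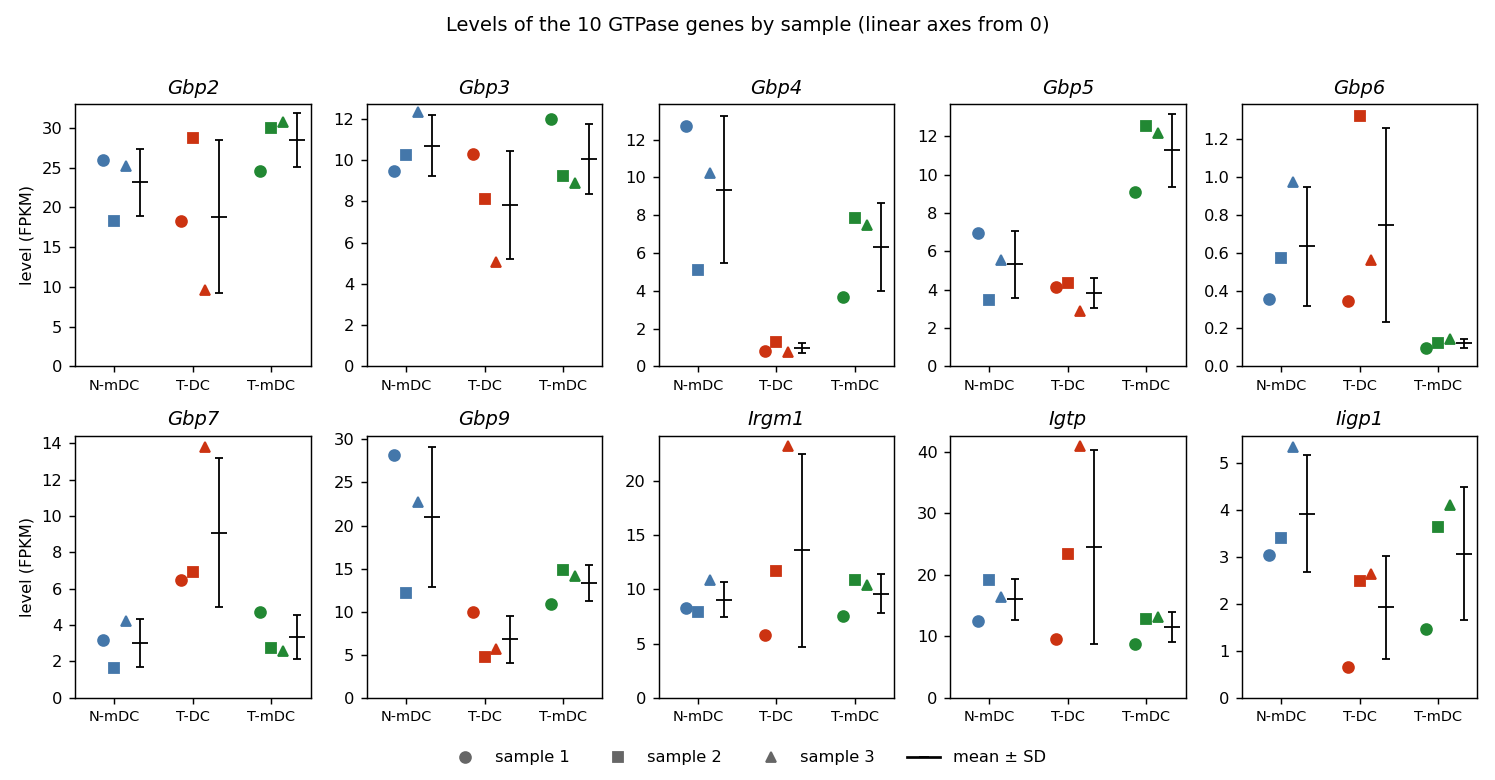
Each panel shows 1 gene, with FPKM on a linear axis from 0, 1 symbol per sample and the mean ± SD (n = 3) beside each group. Gbp4 sat between 0.782 and 1.28 FPKM in T-DCs, below all other samples, Gbp7 sat above them, and Irgm1 and Igtp spread widely within T-DCs.

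On chromosome 3, the neighbours Gbp7 and Gbp5 had calls of opposite sign, each against another mature group. Gbp7 was listed at 3.17, 1.62 and 4.23 FPKM in N-mDCs, at 6.50, 6.91 and 13.8 in T-DCs and at 4.74, 2.72 and 2.596 in T-mDCs, so that every T-DC sample was above every sample of the mature groups. The mean was 3.004 ± 1.31 FPKM in N-mDCs, 9.07 ± 4.10 in T-DCs and 3.35 ± 1.20 in T-mDCs. Gbp7 was higher in T-DCs than in N-mDCs (log2 difference 1.31, SE 0.353, limma adjusted p = 0.0374), and against T-mDCs the log2 difference of 1.17 (95% confidence interval 0.37 to 1.98) just missed the threshold (limma adjusted p = 0.059). The call against N-mDCs was made in 9 of 22 alternative analyses and was lost when any of the N-mDC samples, T-DC sample 2, T-DC sample 3, T-mDC sample 2 or T-mDC sample 3 was left out, while the direction held in all 22. The call was also lost with no filter, with only the groups compared and with the red cell genes as a covariate. In T-DC sample 1, which had 590 FPKM of red cell genes, Gbp7 was 6.50 FPKM. Beyond the covariate fit, the part of red cell RNA in the Gbp7 difference was not tested.

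Gbp5, which promotes assembly of the NLRP3 inflammasome, was listed at 6.95, 3.48 and 5.58 FPKM in N-mDCs, at 4.16, 4.36 and 2.91 in T-DCs and at 9.10, 12.5 and 12.2 in T-mDCs. The T-mDC samples lay above all others, and the T-DC and N-mDC samples overlapped. Gbp5 was lower in T-DCs (mean 3.81 ± 0.787 FPKM) than in T-mDCs (mean 11.3 ± 1.89), by a log2 difference of -1.35 (SE 0.250, limma adjusted p = 0.0105). Between T-DCs and N-mDCs the log2 difference was -0.37 (95% confidence interval -0.94 to 0.20, limma adjusted p = 0.315). The calls of Gbp4 and Gbp5 against T-mDCs just missed the threshold without T-mDC sample 2 or without T-mDC sample 3, with log2 differences near those with all samples (-1.69 and -1.72 for Gbp4, -1.28 and -1.30 for Gbp5). With these alike samples averaged into 1, the limma adjusted p was 0.0594 for Gbp4 and 0.058 for Gbp5. T-mDC sample 1 by itself was above every T-DC sample in both genes. With the red cell genes as a covariate the log2 differences were -1.31 and -0.82 and were not called.

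Gbp2, which acts on vacuoles and on bacteria in the cytoplasm, was listed at 25.9, 18.2 and 25.3 FPKM in N-mDCs, at 18.3, 28.7 and 9.58 in T-DCs and at 24.5, 30.0 and 30.8 in T-mDCs. Gbp3 was listed at 9.48, 10.3 and 12.3 FPKM in N-mDCs, at 10.3, 8.12 and 5.06 in T-DCs and at 12.01, 9.24 and 8.88 in T-mDCs. Both genes overlapped between all groups. For Gbp2 the log2 difference of T-DCs was -0.39 from N-mDCs (95% confidence interval -1.18 to 0.40) and -0.68 from T-mDCs (-1.47 to 0.10). For Gbp3 it was -0.44 (-1.01 to 0.12) and -0.36 (-0.92 to 0.21).

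A ratio of FPKM within a library does not depend on how libraries are scaled. The FPKM of Gbp4 was 4.01, 3.15 and 2.42 times that of Gbp7 in N-mDCs, 0.125, 0.186 and 0.0567 times in T-DCs and 0.770, 2.88 and 2.89 times in T-mDCs. Gbp5 over Gbp7 was 2.19, 2.16 and 1.32 in N-mDCs, 0.640, 0.631 and 0.211 in T-DCs and 1.92, 4.61 and 4.69 in T-mDCs. For both pairs the ratio was below 1 in every T-DC sample, with Gbp7 then the more abundant gene, and above all T-DC values in every mature sample. These pairs were chosen after their values were seen and are given without a test.

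The IRGs gave another picture. Igtp was listed at 12.5, 19.2 and 16.3 FPKM in N-mDCs, at 9.50, 23.3 and 40.9 in T-DCs and at 8.78, 12.9 and 13.1 in T-mDCs. Irgm1 was listed at 8.23, 7.94 and 10.9 FPKM in N-mDCs, at 5.79, 11.7 and 23.2 in T-DCs and at 7.50, 10.8 and 10.4 in T-mDCs. In both genes T-DC sample 3 was the highest of all 9 samples, while T-DC sample 1 was the lowest for Irgm1 and below all N-mDC samples for Igtp. The mean of Igtp was 24.6 ± 15.8 FPKM in T-DCs, 16.01 ± 3.36 in N-mDCs and 11.6 ± 2.43 in T-mDCs. The log2 difference of T-DCs from N-mDCs was 0.39 for Igtp (95% confidence interval -0.63 to 1.41) and 0.36 for Irgm1 (-0.56 to 1.29), and from T-mDCs 0.83 (-0.19 to 1.85) and 0.29 (-0.63 to 1.21), none of which passed the test. The T-DC samples decided these values. Without T-DC sample 1, Igtp was called higher in T-DCs, by 0.93 against N-mDCs (limma adjusted p = 0.0371) and by 1.36 against T-mDCs (limma adjusted p = 0.00903), and Irgm1 had differences of 0.82 (limma adjusted p = 0.0564) and 0.74 (0.0824). With T-DC sample 1 alone the differences from N-mDCs were below 0, at -0.68 for Igtp and -0.55 for Irgm1. With array weights, Igtp was also called against both groups.

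Iigp1 lies on chromosome 18 (60376029 to 60392627, plus strand). It was listed at 3.03, 3.40 and 5.35 FPKM in N-mDCs, at 0.662, 2.48 and 2.64 in T-DCs and at 1.46, 3.65 and 4.11 in T-mDCs. The T-DC samples lay below the N-mDC samples and overlapped the T-mDC samples. The log2 difference from N-mDCs was -0.81 (95% confidence interval -1.69 to 0.07) with a limma adjusted p of 0.169, and from T-mDCs -0.49 (-1.37 to 0.39). Unlike Igtp and Irgm1, Iigp1 was not above the mature samples in T-DC sample 3.

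**Figure D2:**
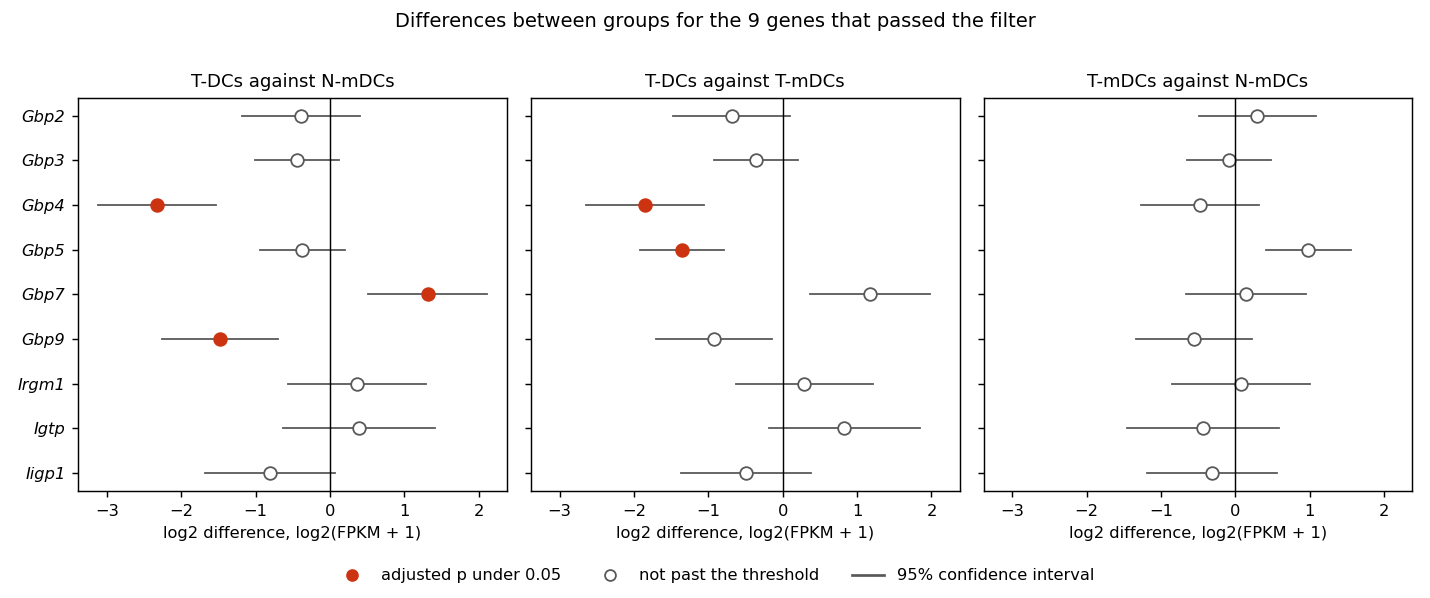
Each point is the log2 difference of a gene between 2 groups on the log2(FPKM + 1) scale, with its 95% confidence interval, and filled points have a limma adjusted p under 0.05. Gbp4 stood at -2.33 and -1.85 in the T-DC comparisons, Gbp7 was on the other side of 0, and no point is filled for T-mDCs against N-mDCs.

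In counts, T-DCs had 1 of the 9 tested genes higher and 2 lower against N-mDCs, where 6.1% of all 12746 tested genes were higher, 10.3% lower and 16.4% either. In 4 of the 9 the samples did not overlap, against 32.4% of all tested genes. Against T-mDCs, 2 of the 9 were lower and 0 higher, where 8.79% of all tested genes were lower, 5.44% higher and 14.2% either, and 4 of the 9 did not overlap, against 34.9%. The median log2 difference of the 9 genes was -0.39 from N-mDCs and -0.49 from T-mDCs, beside 0.05 and 0.07 over all tested genes. Both T-DC comparisons use the same T-DC samples. With 9 genes, 1 call more or fewer makes a large share, and nothing particular to the family is read from these counts.

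T-mDCs and N-mDCs, the mature cells of leukemic and normal mice, gave no call among the 9 tested genes at the adjusted threshold (limma, 0 of 9, and also 0 with limma voom on reads), where 2.21% of all tested genes were called. At an unadjusted p under 0.05 there was 1 gene of the 9, against 16.7% of all tested genes. This was Gbp5, with a log2 difference of 0.98 (95% confidence interval 0.41 to 1.55, limma adjusted p = 0.0932). It was also the 1 gene of the 9 whose samples did not overlap, against 35.0% of all tested genes. The intervals of the other 8 genes spanned 0, from -1.33 to 0.22 for Gbp9 and from -0.49 to 1.08 for Gbp2.

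Within the groups, the order of levels also differed. In N-mDCs, Gbp2 (mean 23.2 FPKM), Gbp9 (20.99) and Igtp (16.01) led and overlapped in turn, followed by Gbp3 (10.7), Gbp4 (9.34), Irgm1 (9.01), Gbp5 (5.34), Iigp1 (3.93) and Gbp7 (3.004). Igtp did not overlap Gbp3, nor Irgm1 Gbp5, while Gbp4, with a range of 5.09 to 12.7, overlapped both Igtp and Gbp5. In T-DCs the first 6 genes overlapped in turn, from Igtp (24.6) through Gbp2 (18.9), Irgm1 (13.6), Gbp7 (9.07) and Gbp3 (7.83) to Gbp9 (6.77), followed without overlap by Gbp5 (3.81) and then by Iigp1 (1.93), which overlapped Gbp4 (0.959). In T-mDCs, Gbp2 (28.5) stood clear of Gbp9 (13.3), and from Gbp9 to Iigp1 (3.07) each gene overlapped the next. Gbp6 was last in all groups, clear of its neighbour in the mature groups and overlapping Gbp4 in T-DCs. Gbp7 thus had rank 9 in N-mDCs and rank 4 in T-DCs, and Gbp4 had rank 5 in N-mDCs and rank 9 in T-DCs.

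Summed over the family, the 7 GBPs gave 86.8, 51.4 and 81.3 FPKM in N-mDCs, 50.3, 55.5 and 38.4 in T-DCs and 65.0, 77.3 and 76.2 in T-mDCs. The T-DC sums lay below the T-mDC sums and overlapped the N-mDC range. The 3 IRGs summed to 23.8, 30.5 and 32.6 FPKM in N-mDCs, 15.95, 37.5 and 66.8 in T-DCs and 17.7, 27.3 and 27.6 in T-mDCs. Within T-DCs the sample with the highest IRG sum had the lowest GBP sum. Across the 9 samples, which share groups and libraries, Pearson's r on the log2 scale was 0.90 for Gbp4 with Gbp9, 0.87 for Irgm1 with Igtp and 0.75 for Gbp2 with Gbp5, and it was -0.81 for Gbp3 with Irgm1 and -0.77 for Gbp4 with Gbp7. The 5 other genes most like the mean scaled level of the 9 tested genes were Gm48990 (r = 0.975 over 9 samples), Lmtk2 (0.971), Ptch1 (0.959), Tspoap1 (0.943) and Gm15433 (0.942), given as a description of a mean over genes that diverged.

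The IRG levels in T-DCs moved with other genes of the same libraries. The 16 type I interferon genes, which include Isg15, Rsad2 and the Oas and Ifit families of antiviral genes, summed to 123, 462 and 1102 FPKM in T-DC samples 1 to 3, in the same order as Igtp and Irgm1. They summed to 439, 642 and 641 FPKM in N-mDCs and 120, 195 and 180 in T-mDCs. Of the 16 genes, Mx1, Mx2, Ifi27l2a and Ifi44 did not follow the order of Igtp and Irgm1 across the T-DC samples. T-DC samples 2 and 3 also had the most red cell and neutrophil RNA of their group, and the red cell sum was higher in sample 2 than in sample 3. The part of type I interferon, red cell RNA or neutrophil RNA in the IRG levels was not tested.

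**Figure D3:**
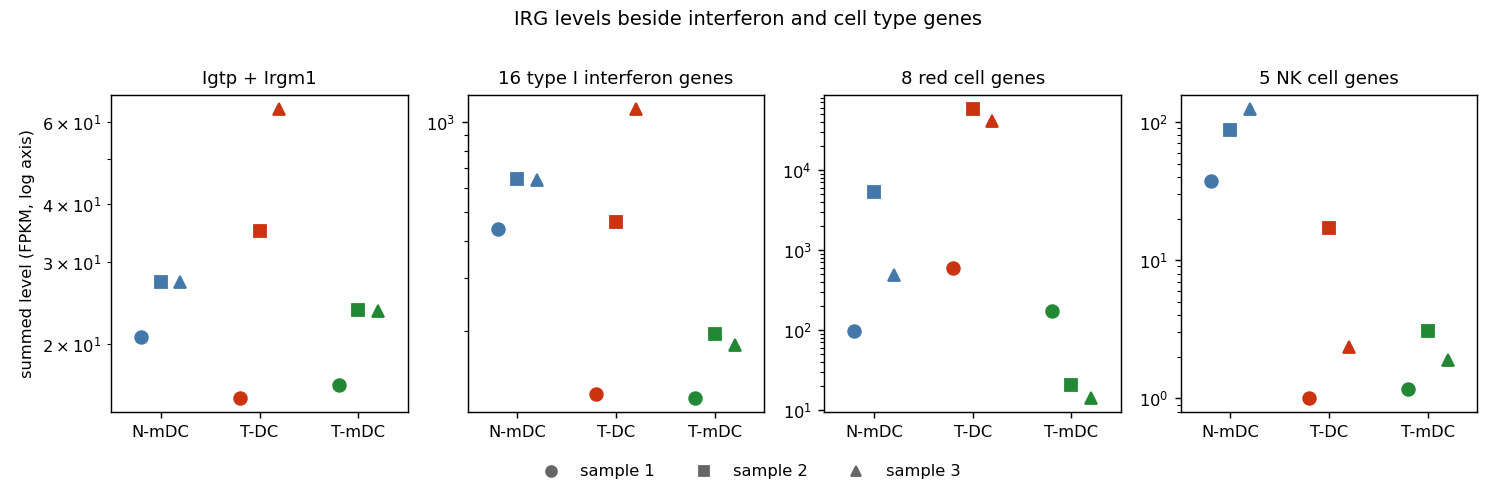
The panels show, per sample and on log axes, the summed FPKM of Igtp and Irgm1, of 16 type I interferon genes, of 8 red cell genes and of 5 NK cell genes. Among T-DCs, sample 3 is highest and sample 1 lowest in the first panels, red cell RNA is highest in sample 2 (57600 FPKM), and NK cell genes are highest in N-mDCs.

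The other genes of the pathway were taken by role. For the ligand, Ifng was too low to be tested and was listed at 0.543, 4.32 and 4.17 FPKM in N-mDCs, at 0.172, 0.897 and 0.203 in T-DCs and at 0, 0.0799 and 0.168 in T-mDCs. Interferon gamma is made mainly by NK and T cells, and the 5 NK cell genes, of which none was at 0 in any sample, summed to 37.3, 87.3 and 124 FPKM in N-mDCs, 1.01, 17.1 and 2.36 in T-DCs and 1.17, 3.07 and 1.89 in T-mDCs. The 8 T lineage genes summed to 23.4, 81.8 and 75.9 FPKM in N-mDCs, 3.99, 78.6 and 17.7 in T-DCs and 7.48, 14.3 and 12.1 in T-mDCs, and of them Rag1 was at 0 in N-mDC samples 2 and 3. T-DC sample 2 was thus close to N-mDC samples 2 and 3 in the T lineage sum but lower in Ifng and NK cell genes. It differed from them within the T lineage list, with 53 reads of Rag1 against 0 to 5 in every other sample. The part of NK and T lineage cells in the Ifng values was not tested. The receptor chains Ifngr1 and Ifngr2 did not pass the test in any comparison, with log2 differences of T-DCs from N-mDCs of -0.37 (95% confidence interval -1.17 to 0.43) and -0.30 (-0.99 to 0.40).

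Of 7 kinases and transcription factors, 3 were called lower and 0 higher in T-DCs against N-mDCs, where 10.3% of all tested genes were lower. Irf1, which drives many GBP genes, went from 64.8, 75.6 and 83.9 FPKM in N-mDCs to 29.9, 23.6 and 12.6 in T-DCs, without overlap (log2 difference -1.79, limma adjusted p = 0.0075). Stat2 had a log2 difference of -0.997 (limma adjusted p = 0.0309) and the kinase Jak2 one of -1.24 (0.0487). Against T-mDCs, Jak2 (-1.95, limma adjusted p = 0.0105) and Irf8 (-1.87, 0.0194), a factor of the cDC1 lineage, were lower and the other 5 did not pass. Among 4 inhibitors, Socs1, which blocks Jak kinases, was lower against both groups (-0.88, limma adjusted p = 0.0408, and -1.13, 0.0196), Socs3 was higher than in N-mDCs (1.34, 0.0435) and the phosphatase Ptpn2 was lower than in T-mDCs (-0.70, 0.0306).

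Of 14 other tested targets of interferon gamma, 7 were called lower in T-DCs against N-mDCs and 9 against T-mDCs, and 0 higher, where 10.3% and 8.79% of all tested genes were lower and 6.1% and 5.44% higher. Their median log2 difference was -1.08 and -1.18, beside 0.05 and 0.07 over all tested genes. The chemokine Cxcl9 went from 45.3, 22.9 and 24.3 FPKM in N-mDCs to 3.07, 2.95 and 1.55 in T-DCs and was 30.7, 64.8 and 62.4 in T-mDCs (log2 difference -3.14 from N-mDCs and -3.88 from T-mDCs, limma adjusted p = 0.00165 and 0.0014). Ciita, which turns on MHCII genes, differed by -3.25 and -3.41 (limma adjusted p = 0.00179 and 0.00197), in cells that were sorted for low surface MHCII. The others lower in both were the MHC class I activator Nlrc5, the peptide transporter genes Tap1 and Tap2 and the immunoproteasome genes Psmb8 and Psmb9, and Ido1 and Serpina3g were lower than in T-mDCs. Many of these are also genes of mature cDCs, whose markers were lower in T-DCs: all 5 genes of migratory mature DCs, such as Ccr7 and Fscn1, were lower against both groups. The part of maturation in the GTPase levels was not tested.

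**Figure D4:**
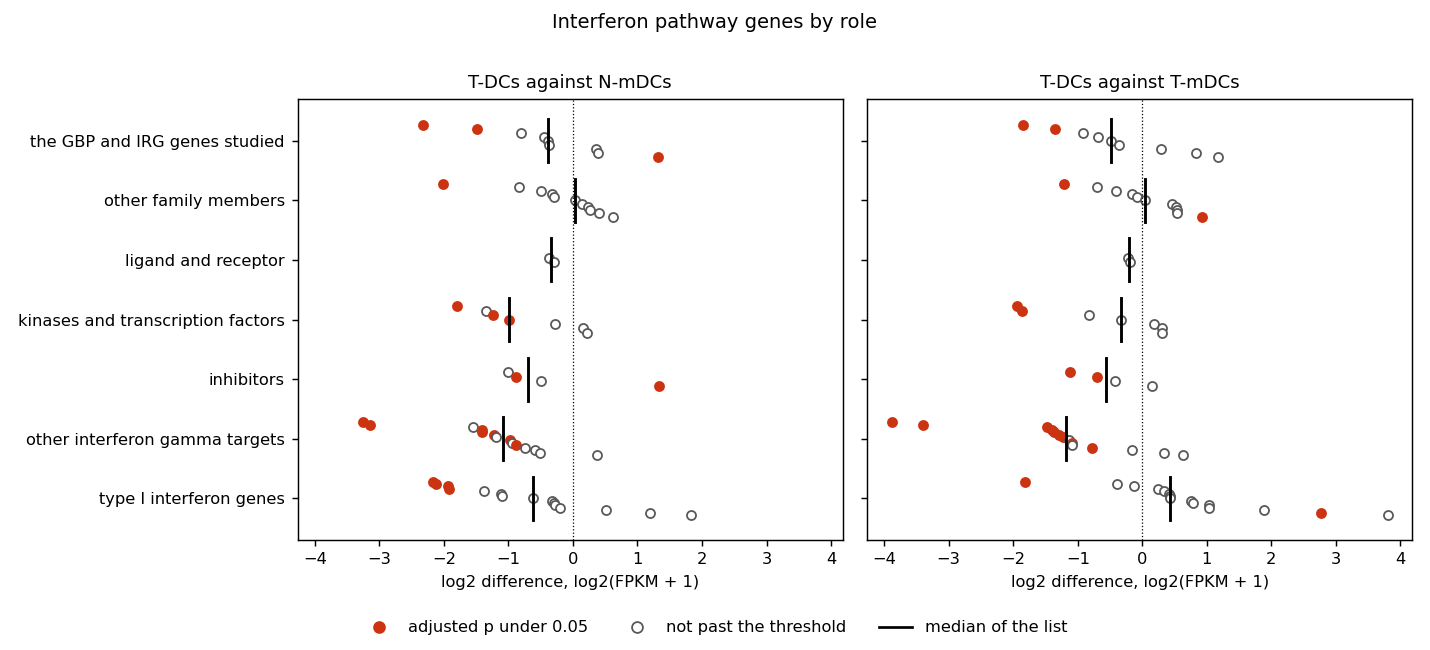
Each point is 1 gene, placed by its log2 difference on the log2(FPKM + 1) scale and grouped by role, with filled points at a limma adjusted p under 0.05 and a bar at the median of the list. Gbp7, Socs3, Irgm2 and Oas3 are the filled points above 0, and the median of the other interferon gamma targets was -1.08 and -1.18.

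In T-DCs the type I interferon genes were mixed. Of 15 tested, Ifit3, Mx1, Mx2 and Ifi27l2a had lower levels in T-DCs compared with N-mDCs, and against T-mDCs Oas3 was higher (log2 difference 2.77, limma adjusted p = 0.0227) and Mx1 lower (-1.81, 0.00582). In T-mDCs, 3 of the 15 were called lower than in N-mDCs, where 2.21% of all tested genes were called. All 15 had log2 differences below 0, and in 13 the samples did not overlap, against 35.0% of all tested genes. The median log2 difference of the 15 was -1.45, beside -0.09 for the 9 GTPase genes and 0.03 for all tested genes.

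Of 16 other GBP and IRG family genes, 11 were tested. Besides Gbp8, Irgm2 was higher in T-DCs than in T-mDCs (10.98, 12.4 and 10.6 FPKM against 6.78, 5.08 and 4.71, log2 difference 0.93, limma adjusted p = 0.016) and Tgtp1 was lower (0.331, 0.725 and 1.56 against 1.65, 4.15 and 4.36, log2 difference -1.21, limma adjusted p = 0.0459). The Tgtp1 levels in T-DCs rest on 19 to 76 reads. Tgtp2 did not pass the test against T-mDCs (log2 difference -0.08, limma adjusted p = 0.927). Irgm2 lies beside Igtp and shares 162 exon bases with it, and 11.8% of the 50-base stretches of Igtp occur in Irgm2. In T-DC samples 1 to 3 Irgm2 stayed between 10.6 and 12.4 FPKM while Igtp ranged from 9.50 to 40.9. Of the other family genes named here, Tgtp1 and Tgtp2 rose in the same sample order as Igtp, while Gbp8 fell. Tgtp2 was listed at 1.805, 5.01 and 10.45 FPKM in T-DC samples 1 to 3.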

How the data were processed

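The authors deposited gene expression values as FPKM for 54532 genes, listed by Ensembl identifier, on genome build mm10 per the labels. Libraries were made from total RNA of sorted cells, and the aligner, the counter and the strand setting are not given in the sources used here. Multiplying FPKM by gene length returned whole reads to within 5.59e-05 of a read in every sample, and the authors' scaling sizes were proportional to median-of-ratios size factors.

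Values were taken as log2(FPKM + 1), with a pseudocount of 1, for the 12746 genes of at least 1 FPKM in at least 3 samples. All 9 samples entered 1 fit in R 4.3.3, made with limma 3.58.1 and an empirical Bayes variance trend. The Benjamini-Hochberg adjustment covered all tested genes, with a threshold of 0.05, and the procedure was tested on simulated data. Differences are given as the first group minus the second. Of the 10 genes, 9 passed the filter. The genes named are these 10 and those of fixed lists that passed the test or whose list is given whole. A gene of the kinase and transcription factor list is not reported here. The members and lists were chosen with earlier results of these data known. Sequence windows and motif counts were read with Python 3.11.15 from RefSeq tables, and exon overlaps from GENCODE M21. No per-sample column was left unused. Depth was within the range given above, so low genes such as Gbp6 rest on few reads.

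Sample groups came from the labels. The replicate numbers were not treated as pairs, since nothing says that a number marks a shared mouse or day, and deviations of same-numbered samples correlated between -0.475 and 0.269. The alternatives were a pseudocount of 0.1, no filter, a filter of 5 FPKM, TPM, quantile and median-of-ratios scaling, only the groups compared, array weights, a replicate block, limma voom on recovered reads, T-mDC samples 2 and 3 averaged into 1, a covariate made of 8 erythroid genes, and leaving out each sample. T-DC sample 1 alone was added after seeing the data.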

Additional observations from a re-analysis of the deposited data

How the results depend on the processing

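Each of the 5 calls kept its direction under every alternative, and none was made under every one. Gbp4 against N-mDCs was called in 20 of 22 alternatives (limma adjusted p up to 0.056), Gbp9 in 14 and Gbp7 in 9, and against T-mDCs Gbp4 and Gbp5 were called in 17 of 22 each.

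Of T-DCs against N-mDCs, 3 of the genes were called. This became 1 with no filter and with only the groups compared, 6 with array weights, 0 with the erythroid covariate (4 at an unadjusted p under 0.05) and 0 with T-DC sample 1 alone (2 unadjusted). It ranged from 1 to 4 when samples were left out, with 1 without N-mDC sample 1 or 3 or T-DC sample 2 or 3 and 2 without N-mDC sample 2 or T-mDC sample 2 or 3. Against T-mDCs, 2 were called. This became 6 with array weights, and 0 with T-mDC samples 2 and 3 averaged into 1 (3 unadjusted), with the erythroid covariate (0 unadjusted) and with T-DC sample 1 alone (3 unadjusted). It ranged from 0 (without T-mDC sample 2 or 3) to 5 (without T-DC sample 1) when samples were left out. Of T-mDCs against N-mDCs, 0 were called, 2 with array weights, and 0 to 1 when samples were left out, where the 1 was Gbp5 without T-DC sample 1 (limma adjusted p = 0.0495). The weights estimation gave a convergence warning. With a lone T-DC sample, that sample is assumed to vary like the other groups. The causes were not tested.

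The replicate block gave 3, 2 and 0 called genes in the 3 comparisons and changed no count. TPM moved the median log2 difference of all genes by -0.27 for T-DCs against T-mDCs and by 0.18 for T-mDCs against N-mDCs, and the directions of the 5 calls held. Median-of-ratios scaling gave the same values because the deposited scaling already had that form.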

Other observations

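Of 10 genes of the ATG8 conjugation system, which is needed to place GBPs and IRGs on vacuoles, Gabarapl1 had lower levels in T-DCs compared with N-mDCs (47.5, 42.9 and 40.8 FPKM in N-mDCs against 20.2, 27.0 and 27.1 in T-DCs, log2 difference -0.81, limma adjusted p = 0.0207) and also lower in T-mDCs (-1.06, 0.0263). Map1lc3b was higher in T-DCs than in T-mDCs (35.1, 37.5 and 23.9 FPKM against 21.2, 14.8 and 15.7, log2 difference 0.85, limma adjusted p = 0.041). The conjugation enzymes Atg3, Atg5, Atg7, Atg12 and Atg16l1 did not pass the test in any comparison.

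Of 5 inflammasome genes, Nlrp3, the sensor that Gbp5 acts on, had lower levels in T-DCs compared with N-mDCs (76.1, 47.7 and 97.02 FPKM in N-mDCs against 10.3, 7.24 and 3.83, log2 difference -3.23, limma adjusted p = 0.00168). It was 12.2, 21.4 and 21.1 FPKM in T-mDCs, below the N-mDC level (-1.94, limma adjusted p = 0.0428), where Gbp5 had its highest values. Casp1, Casp4, Aim2 and Gsdmd did not pass the test in any comparison.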
